A study of Mus musculus with 2 samples.

Results

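Collagens are the main structural proteins of the extracellular matrix. This account describes DNA methylation at 42 mouse collagen genes, out of 21887 protein-coding genes, in 2 cell populations sorted from adipose tissue. The 42 genes were chosen by name, as the collagen family, and every region in a table of differentially methylated regions that overlapped the span of such a gene or lay within 2 kb of it was taken. The family was divided by textbook structure into 11 fibrillar genes, 6 genes of basement membranes and 25 others. The table compares whole-genome bisulfite sequencing of 1 library from CD137+ cells and 1 library from PDGFRα+ (CD140+) cells, both from C57BL/6 mouse adipose tissue. CD137 is a costimulatory receptor encoded by Tnfrsf9, and PDGFRα binds platelet-derived growth factor and marks mesenchymal progenitors. Both groups were sorted with magnetic beads, grown in culture and induced to become adipocytes. Both then received the synthetic glucocorticoid dexamethasone at 1 µM, so no untreated cells are compared. The labels name subcutaneous or visceral fat as the source without saying which depot gave which library, and give neither the age of the mice nor how many were pooled.

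A collagen molecule is a triple helix of chains, each encoded by its own gene. Fibrillar collagens pack into the cross-striated fibrils that carry tension, type IV collagen forms the sheet-like network of basement membranes, and type VI collagen forms beaded microfilaments that are abundant around adipocytes. Fibroblasts and mesenchymal progenitors are major producers of fibrillar and type VI collagen in fat. In general, low methylation near a gene's start or in an enhancer accompanies use of that element, but methylation of a region is not a measure of expression, and RNA was not used here.

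With 1 library per group there is no spread between replicates to set a difference against, and no test was made. The table lists 28141 regions called as different by the authors, so levels elsewhere are not known. Each level is the fraction of a region's cytosines read as methylated, and the read depth behind it is unknown, so single levels carry no interval. Shares of regions carry 95% Wilson intervals, which cover counting error only and treat regions of a gene as independent. A level is an average over the cells of a library, so a change of methylation within cells and a different mixture of cells cannot be told apart. Starts are printed counting from 1.

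Most collagen genes held a region, and most of those regions were less methylated in the PDGFRα+ library. Of the 42 genes 32 (76.2%) had at least 1 region, against 29.5% of all protein-coding genes. The 32 genes held 100 regions, none of them shared between members, of which 88 were lower and 12 higher in PDGFRα+. The share lower was 88.0% (80.2 to 93.0), beside 77.7% of all listed regions and 74.7% of regions at protein-coding genes. Counted by gene, 23 of the 32 had lower regions only, 8 had both directions and 1 had a higher region only. Over all protein-coding genes with a region the same shares were 58.5%, 23.0% and 18.5%. In 28 of the 32 genes lower regions outnumbered higher ones, as they did in 70.4% of all genes with a region. Col5a1, Col5a2, Col4a2, Col6a6, Col14a1 and Col26a1 had 5 or more regions each, 6 of 42 genes, beside 3.75% of all protein-coding genes. The 88 lower regions had median levels of 0.229 in PDGFRα+ and 0.813 in CD137+, beside 0.264 and 0.826 in lower regions at all protein-coding genes. The median difference was -0.524 in the former and -0.527 in the latter, so the size of the difference was near the background. Whether the family differs from other genes was not tested.

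**Figure D1:**
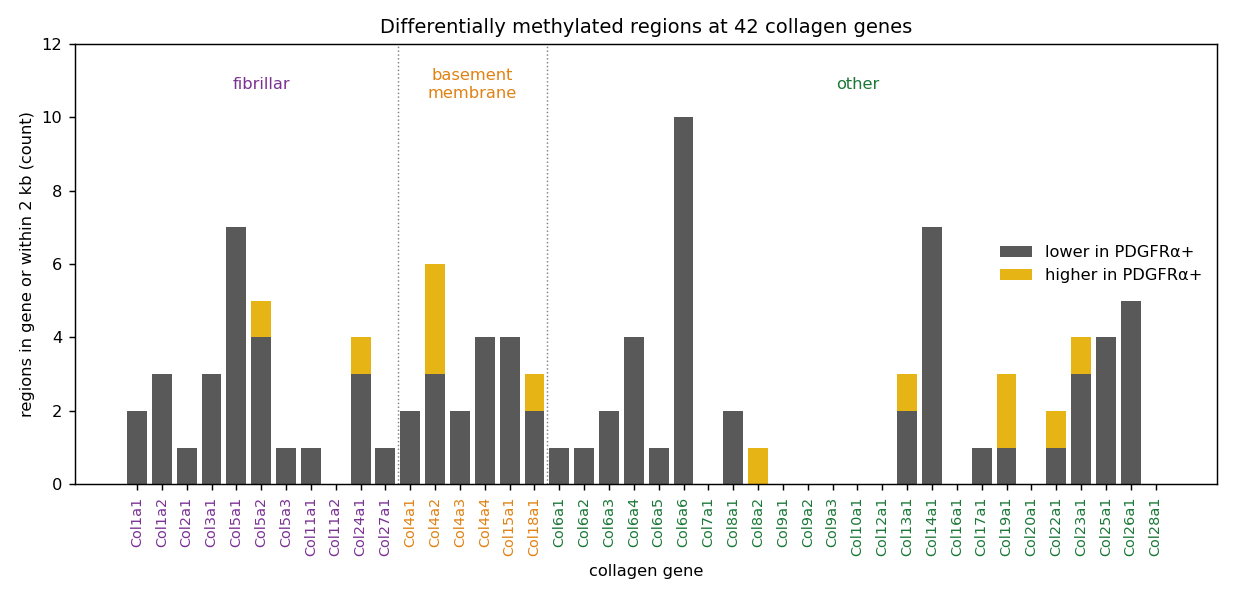
Number of regions in each of the 42 collagen genes or within 2 kb (vertical axis, count), in grey for regions lower and in yellow for regions higher in PDGFRα+, with the genes grouped by class along the horizontal axis. Col6a6 carries 10 lower regions, and the 12 higher regions lie in 9 genes.

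Collagen genes are long, and a long gene has more room for a region. Their median length was 110.4 kb, against 17.2 kb for all protein-coding genes. Among genes over 20 and up to 50 kb, 7 of 11 collagen genes had a region, beside 32.1% of all genes of that length. Over 100 and up to 200 kb the counts were 16 of 18 collagen genes beside 75.2%, and over 200 and up to 500 kb 6 of 6 beside 88.9%. Up to 20 kb, 2 of 4 had a region beside 12.5%, and over 50 and up to 100 kb 1 of 3 beside 54.0%. Averaged over the length classes of the 42 genes, 58.4% of all genes had a region, a value between the 29.5% over all lengths and the 76.2% of the collagen genes. Per 100 kb of gene and flank, collagen genes held 1.97 regions and all protein-coding genes 1.41. The order varied with length. Collagen genes held more up to 20 kb (4.11 beside 1.40), over 20 to 50 kb (2.68 beside 1.37) and over 100 to 200 kb (2.41 beside 1.71). They held fewer over 50 to 100 kb (0.927 beside 1.49) and over 200 to 500 kb (1.27 beside 1.59).

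**Figure D2:**
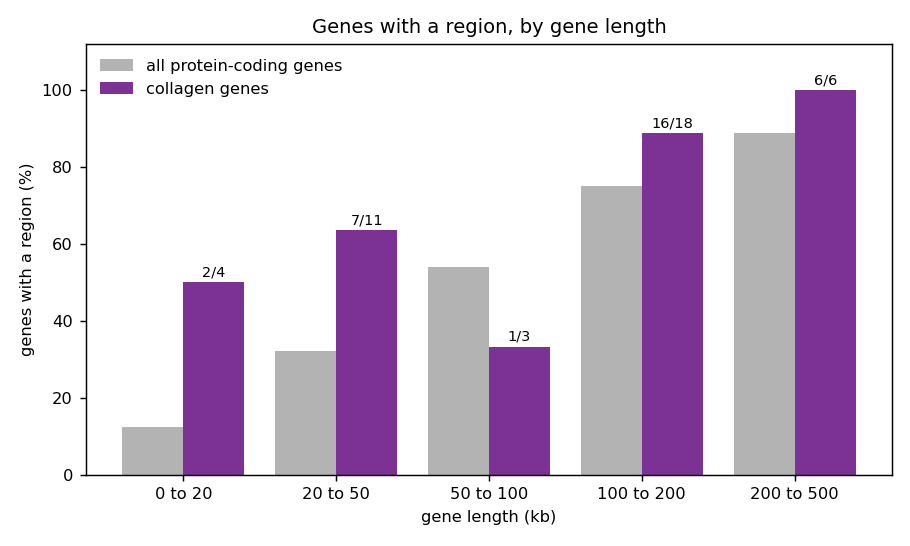
Percentage of genes with a region (vertical axis) by gene length in kb (horizontal axis), with all protein-coding genes in grey and collagen genes in purple, and the number of collagen genes with a region over the number in the class above each purple bar. The purple bar is the higher one in every class except over 50 to 100 kb, which holds 3 collagen genes.

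Regions at the start of a gene bear most directly on its promoter. RefSeq (GRCm38.p6) promoter windows, from 250 bases before to 50 after a start, were matched for 33 of the 42 members. The windows of Col3a1, Col1a2, Col6a1, Col6a2 and Col18a1 are shown because their lower regions lay closest to a start, at most 439 bases away. That of Col8a2 is shown for contrast, because Col8a2 was the only member whose single region was higher. Each is written 5′ to 3′ on the strand of the gene, with CG dinucleotides, the sites methylated in mammals, in capitals. The windows are Col3a1 at chr1:45311288-45311587 (plus strand), Col1a2 at chr6:4505368-4505667 (plus), Col6a1 at chr10:76725995-76726294 (minus), Col6a2 at chr10:76623355-76623654 (minus), an inner start of Col18a1 at chr10:77113656-77113955 (minus) and Col8a2 at chr4:126286544-126286843 (plus).
Col3a1: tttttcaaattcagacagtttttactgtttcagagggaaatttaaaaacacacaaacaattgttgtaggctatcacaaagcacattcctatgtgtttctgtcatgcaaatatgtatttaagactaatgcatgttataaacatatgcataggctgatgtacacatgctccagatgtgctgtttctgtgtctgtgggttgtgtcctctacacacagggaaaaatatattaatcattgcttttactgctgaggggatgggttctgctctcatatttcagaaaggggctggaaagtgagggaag
Col1a2: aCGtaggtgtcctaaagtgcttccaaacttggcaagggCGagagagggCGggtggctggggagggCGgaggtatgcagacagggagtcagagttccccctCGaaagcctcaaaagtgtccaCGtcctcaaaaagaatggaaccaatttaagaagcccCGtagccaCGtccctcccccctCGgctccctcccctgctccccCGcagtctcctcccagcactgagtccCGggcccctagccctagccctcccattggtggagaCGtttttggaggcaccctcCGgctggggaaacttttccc
Col6a1: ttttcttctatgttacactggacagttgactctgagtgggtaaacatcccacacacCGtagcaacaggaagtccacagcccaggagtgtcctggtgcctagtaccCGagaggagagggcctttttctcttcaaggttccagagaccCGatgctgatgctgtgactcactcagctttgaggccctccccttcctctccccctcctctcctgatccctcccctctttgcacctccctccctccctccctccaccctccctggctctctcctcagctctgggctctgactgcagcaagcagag
Col6a2: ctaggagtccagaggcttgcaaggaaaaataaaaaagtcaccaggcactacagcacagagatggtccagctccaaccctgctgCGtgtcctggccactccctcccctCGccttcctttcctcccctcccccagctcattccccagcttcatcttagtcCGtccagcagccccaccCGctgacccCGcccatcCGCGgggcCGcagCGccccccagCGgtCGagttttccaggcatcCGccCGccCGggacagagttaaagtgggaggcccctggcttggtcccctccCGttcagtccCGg
Col18a1: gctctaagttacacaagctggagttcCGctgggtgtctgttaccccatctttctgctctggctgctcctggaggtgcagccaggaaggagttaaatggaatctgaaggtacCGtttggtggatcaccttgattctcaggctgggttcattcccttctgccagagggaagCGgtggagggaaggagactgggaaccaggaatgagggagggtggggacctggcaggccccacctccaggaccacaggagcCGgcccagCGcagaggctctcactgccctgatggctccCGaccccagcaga
Col8a2: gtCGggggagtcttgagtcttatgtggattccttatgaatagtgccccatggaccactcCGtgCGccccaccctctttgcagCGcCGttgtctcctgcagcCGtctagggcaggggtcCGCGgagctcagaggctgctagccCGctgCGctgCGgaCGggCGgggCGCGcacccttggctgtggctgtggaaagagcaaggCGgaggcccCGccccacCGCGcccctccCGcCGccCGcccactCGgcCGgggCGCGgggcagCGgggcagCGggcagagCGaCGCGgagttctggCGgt
The Col3a1 window holds 0 CG sites, that of Col6a1 3, Col18a1 6, Col1a2 13, Col6a2 16 and Col8a2 32. Over all 32851 windows the median is 7, and 94.6% hold at least 1. CG is the same on both strands, so 1 strand was searched.

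The genes of the major interstitial fibrils, types I and III, carried their regions at or close to their ends. Col1a2 encodes the second chain of type I collagen, the most abundant collagen of connective tissue, and had 3 lower regions in the first part of the gene on chromosome 6. The first, 4506040 to 4506592, began 422 bases after the start and covered 29 cytosines. Its PDGFRα+ level was 0.0672 and its CD137+ level 0.520. The second, 1691 bases after the start, had 0.106 and 0.684, and the third, 3954 bases after it, 0.315 and 0.802. In the PDGFRα+ library the level was thus lowest next to the start and highest farthest from it, and the CD137+ library had the same order. Col3a1, encoding type III collagen of skin, vessels and fat stroma, showed 3 lower regions around its start on chromosome 1. The one 88 bases after the start, 45311626 to 45311845, had 0.0631 and 0.601. The one 3118 bases after it had 0.0286 and 0.662, the lowest PDGFRα+ level of all 100 regions, and the one 1295 bases before it had 0.219 and 0.702. The Col3a1 window printed above holds no CG, so no level could be measured at CG sites inside it, and the nearest lower region begins beyond its end. Col1a1, the other chain of type I, had no region in its span. Its 2 regions lay 1236 bases below the lower end (0.120 in PDGFRα+ and 0.537 in CD137+) and 1472 bases above the upper end (0.354 and 0.923) of the gene on chromosome 11, 94936224 to 94953042.

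Type V collagen co-assembles with type I and regulates the start and width of fibrils. Col5a1 (chromosome 2, 27886381 to 28039510) had 7 regions, all lower, between 5789 and 53709 bases after the start of the 153 kb gene. Their levels ran from 0.131 to 0.471 in PDGFRα+ and from 0.784 to 0.964 in CD137+. The region with the largest statistic, 27933983 to 27934899, had 0.301 and 0.870 over 33 cytosines. The widest difference, -0.718, was at 27899426 to 27899803 with 0.131 and 0.849. Col5a2 (chromosome 1, 45374331 to 45503282) had 4 lower regions and 1 higher. Its lower regions had 0.114 to 0.218 in PDGFRα+ and 0.673 to 0.838 in CD137+, and the largest, 45500589 to 45501715, lay inside the upper end of the gene with 0.209 and 0.673. The higher region, 45407022 to 45407247, had 0.915 and 0.313. Col5a3 had 1 lower region 2541 bases after its start (0.413 and 0.886).

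The remaining fibrillar genes belong to cartilage or to minor fibrillar types. Col2a1, the main cartilage collagen, had 1 lower region (0.403 and 0.912), and Col11a1, which joins type II in cartilage fibrils, also had 1 (0.235 and 0.714). Col27a1 had 1 lower region (0.164 and 0.751). Col24a1 had 3 lower regions, the largest with 0.186 and 0.776, and 1 higher, 145537731 to 145537957 on chromosome 3, with 0.973 and 0.535. Col11a2 was the only fibrillar gene with none, and its nearest region lay 8095 bases away. In all, 10 of the 11 fibrillar genes had a region, beside 51.1% of all genes of their length classes. Of these 10, 8 had lower regions only, beside 58.5% of all genes with a region. In this class 26 of 28 regions were lower (92.9%, 77.4 to 98.0), beside 74.7% of regions at protein-coding genes. Cytosines were sparser in fibrillar regions, with a median of 3.14 per 100 bases against 5.19 in basement-membrane and 5.47 in other collagen genes. In regions at protein-coding genes the median was 4.65. Fibrillar regions were also longer (median 347.5 bases against 173 and 186) and held more cytosines each (median 11 against 8 and 8).

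**Figure D3:**
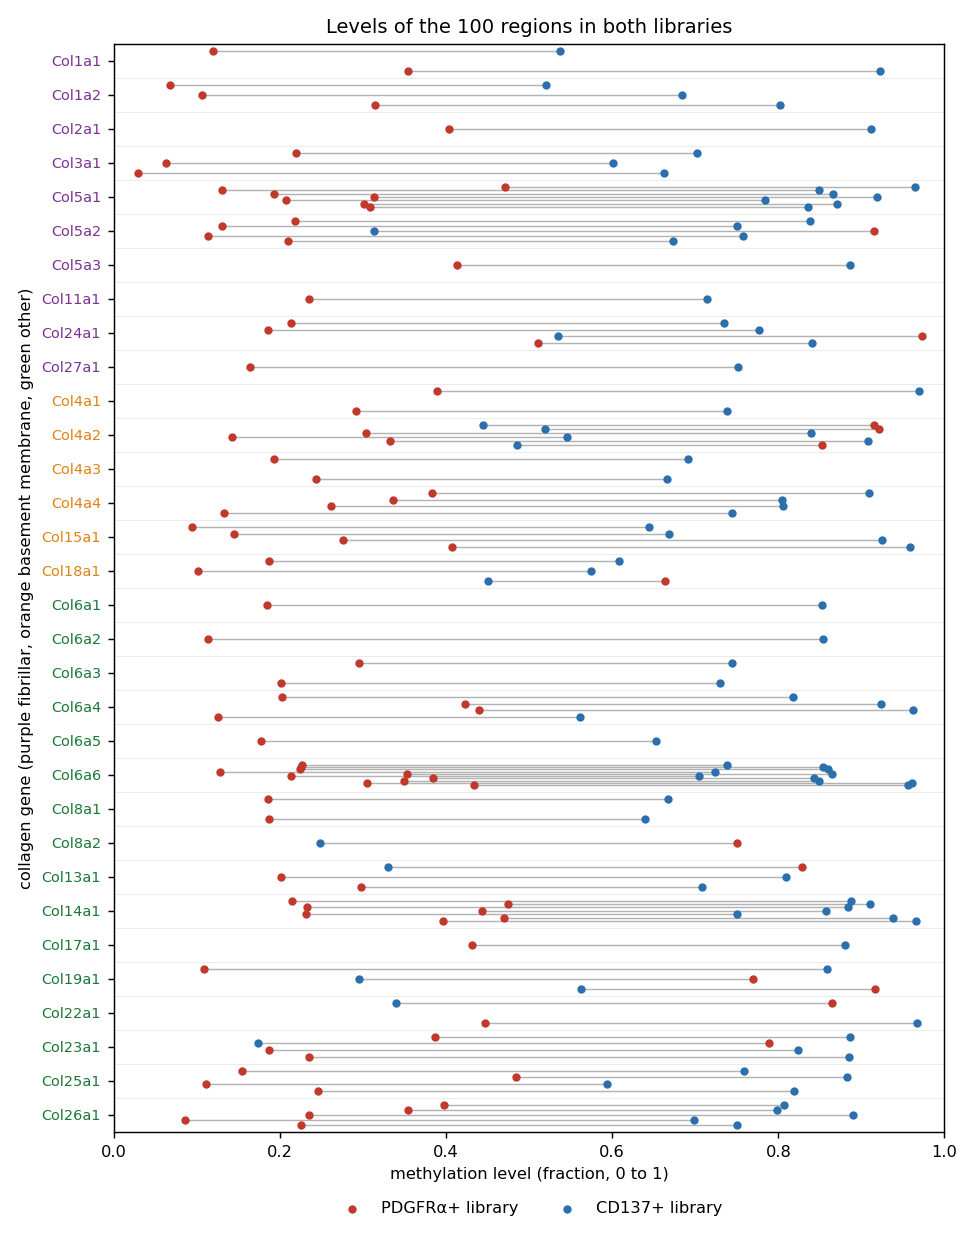
Methylation level (horizontal axis, fraction) of each of the 100 regions in the PDGFRα+ library (red) and the CD137+ library (blue), joined by a grey line, in 32 collagen genes (vertical axis, names coloured by class). Red points lie left of blue ones in 88 regions, and the Col3a1 and Col1a2 regions include the lowest red points, 0.0286, 0.0631 and 0.0672.

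All 6 genes of basement membranes had a region, beside 75.2% of all genes of their length classes. Of their 21 regions 17 were lower (81.0%, 60.0 to 92.3), near the 74.7% of regions at protein-coding genes and the 77.7% of all listed regions. Col4a1 and Col4a2 encode the chains of the type IV network found in nearly all basement membranes, and they lie head to head on chromosome 8 with overlapping starts. No region lay near that shared start, and the nearest began 49804 bases after the Col4a2 start. Col4a1 had 2 lower regions, the larger with 0.292 and 0.738 and the other with 0.389 and 0.969. Col4a2 was evenly divided, with 3 lower and 3 higher regions. Its lower regions had 0.304, 0.143 and 0.333 in PDGFRα+ against 0.839, 0.546 and 0.908 in CD137+. Its higher regions had 0.915, 0.921 and 0.853 against 0.444, 0.520 and 0.486. The higher regions were short, 85, 57 and 66 bases with 6, 9 and 5 cytosines, and none differed by 0.5 or more. The lower regions were 393, 76 and 121 bases long, with 14, 8 and 13 cytosines. The first pair of higher regions, 11362609 to 11362693 and 11362800 to 11362856, lay next to each other, and the third, 11441745 to 11441810, was near the upper end of the gene. A further higher region lay just outside the 2 kb limit, 2354 bases above the gene (0.863 and 0.287).

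Col4a3 and Col4a4 encode type IV chains of the kidney glomerulus and inner ear, and are also arranged head to head, on chromosome 1. The nearest region lay 8189 bases from the Col4a4 start. Col4a3 had 2 lower regions, the larger with 0.193 and 0.691, and Col4a4 had 4 lower regions with 0.132 to 0.383 in PDGFRα+ and 0.744 to 0.909 in CD137+. In Col4a4 the region with the largest statistic, 82453100 to 82453315, had 0.336 and 0.804. Col15a1 and Col18a1 encode the multiplexins, collagens of the basement membrane zone that carry sugar chains. Col15a1 had 4 lower regions with 0.0943 to 0.407 against 0.645 to 0.959, and its largest had 0.276 and 0.925. Col18a1, the source of the fragment endostatin, had 2 lower regions and 1 higher. The lower region 77113928 to 77114179 on chromosome 10 ended 223 bases before the inner start shown above and overlapped the first 28 bases of that window, with levels of 0.101 and 0.574. Of the 76 regions at members with a RefSeq start, it was the only one that reached into a promoter window of its gene. The other lower region had 0.187 and 0.608. The higher region, 77153926 to 77154846, had 0.664 and 0.450, the smallest difference of the 100 at 0.214.

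Type VI collagen genes had lower regions only, and levels outside the listed regions are not known. All 6 had a region, beside 29.5% of all protein-coding genes. Their median length was 91.8 kb, and 54.0% of all genes over 50 and up to 100 kb had a region. All 19 regions were lower (100%, 83.2 to 100), beside 74.7% of regions at protein-coding genes. Their medians were 0.225 in PDGFRα+ and 0.849 in CD137+. Col6a6 alone held 10 of the 19. Per 100 kb they held 3.82 regions, the most of any structural group compared here, against 1.97 for all collagen genes. Col6a1 and Col6a2 encode chains of the classical type VI molecule and had 1 region each, just inside the start. In Col6a1 it lay 439 bases after the start, at 76725479 to 76725605 on chromosome 10, with 0.185 and 0.853. In Col6a2 it lay 310 bases after the nearer of the gene's starts, at 76621871 to 76623094, with 0.114 and 0.854 over 16 cytosines. The Col6a2 region and the Col6a1 region differed by -0.739 and -0.668, among the 26 collagen regions with a difference of at least 0.6. Between these 2 genes, which are 85161 bases apart, lay 6 further listed regions, all lower. Col6a3, the long chain of the classical molecule and the source of the fragment endotrophin, had 2 lower regions, 18785 and 20251 bases after the start (0.201 and 0.730 in the larger, 0.295 and 0.744 in the other).

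Col6a4, Col6a5 and Col6a6 encode alternative chains that can take the place of the Col6a3 product, and lie in a row on chromosome 9. Col6a6 (105689417 to 105828246) had 10 regions, the most of any collagen gene and all lower. Their PDGFRα+ levels ran from 0.128 to 0.434 and their CD137+ levels from 0.704 to 0.961. The region with the largest statistic, 105720990 to 105721499, had 0.225 and 0.854. One region lay upstream, at -585 bases from the start, with 0.434 and 0.956, and another 4779 bases after the start had 0.305 and 0.961. Col6a4 had 4 lower regions, the largest with 0.423 and 0.923, and Col6a5 had 1 (0.178 and 0.653). From Col6a5 to Col6a6, including the DNA between them, all 12 listed regions were lower, and between Col6a4 and Col6a5 2 of 3 were.

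Of the 9 genes of FACITs, collagens that coat or link fibrils, 3 had a region (33.3%, beside 29.5% of all protein-coding genes), and 9 of their 12 regions were lower (75.0%, beside 74.7% of regions at protein-coding genes). Both shares were near these background values, which take no account of gene length. The median length of the FACIT genes was 75.15 kb, and 54.0% of all genes over 50 and up to 100 kb had a region. The share of FACIT genes with a region was below that value. Col14a1, which binds the surface of type I fibrils, had 7 regions, all lower, along the gene on chromosome 15 (55307644 to 55520803). Their levels were 0.214 to 0.474 in PDGFRα+ and 0.750 to 0.965 in CD137+, and the region with the largest statistic, 55418167 to 55418543, had 0.233 and 0.884. Col12a1, a related FACIT of type I fibrils, had none, and its nearest region was 87650 bases away. Col19a1 was the one FACIT gene mostly higher, with 2 higher regions and 1 lower. The higher regions lay in the first part of the gene, 1443 bases after the start (0.917 and 0.562) and 14610 bases after it (0.770 and 0.295). The lower one, 300392 bases after the start, had 0.109 and 0.859, a difference of -0.751 that was the largest of the 100. Col22a1, found at muscle and tendon junctions, had 1 higher (0.865 and 0.340) and 1 lower region (0.447 and 0.967). Col9a1, Col9a2, Col9a3, Col16a1 and Col20a1 had none.

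The transmembrane collagens Col13a1, Col17a1, Col23a1 and Col25a1 all had regions. Their median length was 217.6 kb, and 88.9% of all genes over 200 and up to 500 kb had a region. Of their regions 10 of 12 were lower (83.3%, 55.2 to 95.3), and the interval held the 74.7% of regions at protein-coding genes. In Col13a1 the lower regions had 0.202 and 0.298 in PDGFRα+ against 0.809 and 0.708 in CD137+, and the higher one had 0.828 against 0.331. Col23a1 had 3 lower regions and 1 higher. Its lower region 51502238 to 51502669 on chromosome 11 had 0.187 and 0.824 over 23 cytosines, and its higher one, 51367393 to 51367482, had 0.789 and 0.174. Col25a1, a collagen of neurons, had 4 lower regions with 0.112 to 0.484 against 0.594 to 0.883, the largest with 0.484 and 0.883. Col17a1, a component of hemidesmosomes in epithelium, had 1 lower region (0.431 and 0.880).

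Of the short-chain network collagens, Col8a1 had 2 lower regions (0.187 and 0.640 in the larger, 0.185 and 0.667 in the other), whereas its partner Col8a2 had 1 higher region. This region, 126288315 to 126288553 on chromosome 4, lay 1521 bases after the start and had 0.750 in PDGFRα+ and 0.249 in CD137+. The chains of these genes occur together in Descemet's membrane of the eye and in vessel walls, and their listed regions had opposite directions. Col10a1, a marker of hypertrophic cartilage, had none. Col26a1 (chromosome 5, 136741759 to 136883376) held 5 regions, all lower, with 0.0862 to 0.398 in PDGFRα+ and 0.699 to 0.890 in CD137+. Its region 136810544 to 136811216, with 0.0862 and 0.699 over 41 cytosines, had the largest statistic of the family and ranked 123 among the 21870 lower regions of the table. Col7a1, the anchoring fibril collagen of skin, and Col28a1 had none. Over the 25 other collagen genes, 16 had a region, beside 57.5% of all genes of their length classes. In this class 45 of 51 regions were lower (88.2%, 76.6 to 94.5), beside 74.7% of regions at protein-coding genes.

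In each class most regions were lower, as were 77.7% of all listed regions and 74.7% of regions at protein-coding genes. The interval of each class held the 77.7%, and that of the basement-membrane class also held the 74.7%. The shares lower of 92.9% in fibrillar, 81.0% in basement-membrane and 88.2% in other collagen genes had overlapping intervals, and the medians of the difference were -0.533, -0.498 and -0.512. Overlap of such wide intervals does not show that the classes are alike, and a difference between classes was not tested. The share of genes with a region ran from 16 of 25 in the other genes to 10 of 11 fibrillar and 6 of 6 basement-membrane genes. For genes of the same length classes it was 57.5%, 51.1% and 75.2%. The fibrillar share lay farthest above its length background, but the basement-membrane share, at 6 of 6, could go no higher. These classes hold few genes, and the order of the gaps was not tested.

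Near starts, too, most collagen regions were lower. Of the 76 regions at members with a RefSeq start, 14 lay within 5 kb of it, and 12 of these were lower (85.7%, 60.1 to 96.0). Over all protein-coding genes 64.2% of regions within 5 kb of a start were lower. The higher ones were those of Col8a2 and Col19a1. The 12 lower regions had a median PDGFRα+ level of 0.149, beside 0.233 in all lower regions near protein-coding starts, and 7 of them (58.3%, beside 39.8%) had a level under 0.2. Farther than 5 kb from the start, 54 of 62 were lower (87.1%), with a median PDGFRα+ level of 0.231. None of the 76 covered a start itself. These counts are small, and Col1a2 and Col3a1 gave 6 of the 14.

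**Figure D4:**
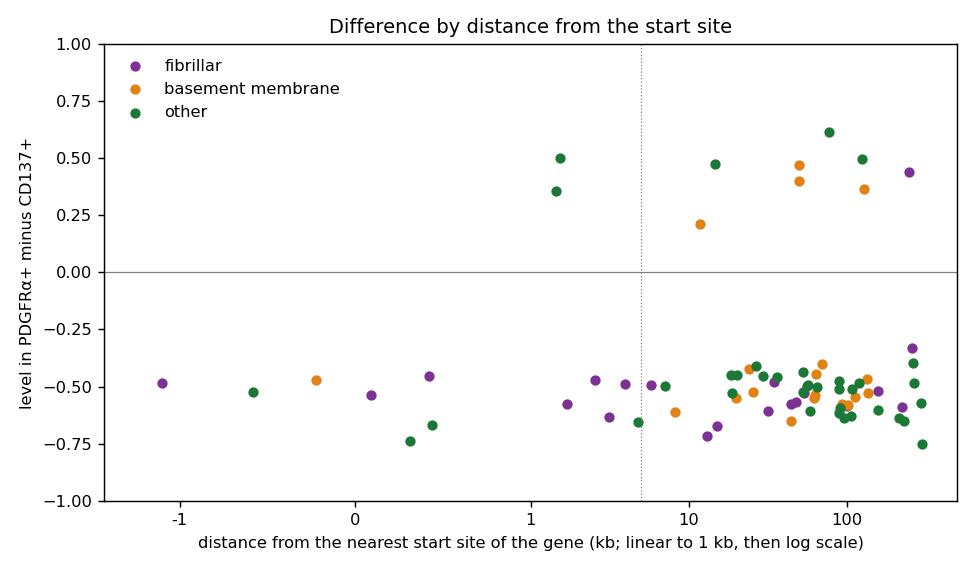
Difference in level, PDGFRα+ minus CD137+ (vertical axis), against distance from the nearest start of the gene (horizontal axis, kb, linear up to 1 kb and logarithmic beyond) for the 76 regions at members with a RefSeq start, coloured by class. The dotted line marks 5 kb, inside which 12 of 14 points lie below 0.

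The nearest regions just inside it were those of Col6a6 at 424 bases, Col1a1 at 1236 and 1472 bases and Col3a1 at 1295 bases outside the span, all lower. The first beyond it were a higher region at 2354 bases from Col4a2, a lower one at 2432 bases from Col4a4 (0.479 and 0.959) and a lower one at 3009 bases from Col3a1 (0.220 and 0.730). Between 2 and 10 kb lay 24 pairs of a member and a region, 18 lower and 6 higher, and one of these regions lies in Col4a4 and is counted here for its neighbour Col4a3. Of the 10 members without a region, Col7a1, Col11a2 and Col28a1 had one between 2 and 10 kb, all lower, and for the others the nearest was 10892 to 87650 bases away. No region of a collagen gene lay also at another protein-coding gene, while 10 lay also at a long noncoding RNA gene.

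Genes that modify, secrete, cross-link or bind collagen also had mostly lower regions. Of 43 such genes 29 had a region (67.4%, beside 29.5% of all protein-coding genes and 40.5% averaged over their length classes). Of their 65 regions 61 were lower and 4 higher, beside 74.7% lower over regions at protein-coding genes. Lower regions only were found in 25 of the 29 genes, beside 58.5% of all genes with a region. Plod2, a lysyl hydroxylase that prepares collagen for stable cross-links, was lower in 8 of 8 regions, with means of 0.199 in PDGFRα+ and 0.818 in CD137+. Its paralogue Plod1 had 1 region, which was higher (0.877 and 0.196), and was the only gene of the list with a higher region only. The collagen receptor gene Ddr2 was lower in 4 of 4 regions (means 0.187 and 0.741). The procollagen proteinase genes Bmp1 (2 of 2 lower, 0.255 and 0.877) and Adamts14 (1 of 1, 0.115 and 0.786) had lower regions only. Tll2, a relative of Bmp1, was lower in 4 of 5, and Colgalt2, a collagen galactosyltransferase gene, had 1 region in each direction (0.330 and 0.958 in the lower, 0.932 and 0.420 in the higher).

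Markers of other cell types also had regions. Over all protein-coding genes 29.5% had a region, and of the regions at these genes 74.7% were lower and 25.3% higher. Of 12 immune markers 7 had a region, and 19 of their 22 regions were higher in PDGFRα+. All 8 endothelial markers had one, and 15 of their 24 regions were higher. All 5 regions of 8 mural markers and 13 of 14 regions of 6 mesothelial markers were lower, like those of the collagen genes. Of 10 markers of adipose progenitors, only Pdgfra, Dpp4 and Eng had a region, with 7 of 10 regions lower, and of 8 adipocyte markers 3 had one, with 3 of 4 lower. The shares of lower regions in these last lists were near the background. Methylation differences do not measure marker levels, so the labelled cell type could not be checked here, and the part of other cell types in the collagen result was not tested.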

How the data were processed

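Whole-genome bisulfite sequencing gave 2 libraries, 1 per group. Per the labels' protocols, DNA was sheared to about 350 bases, converted and amplified. Per the submitters' processing notes, reads were placed on mm10. The aligner, region caller, thresholds and coverage minimum were not given in the sources used here. The authors deposited 1 table of regions. Per the file headers it gives each library's level as a fraction, the difference (CD140 minus CD137) and an area statistic, each deposited as a score, with the length and number of cytosines.

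In RefSeq promoter sequence, all 249 deposited starts that fell inside a window lay on a CG site when counted from 0, and 163 of 247 did not when counted from 1. Starts were therefore raised by 1 base. First and last cytosines were found on either strand, so a CG site can count as 2 cytosines.

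Regions were matched to RefSeq gene spans (GRCm38.p6) widened by 2 kb. Distances run from a start to the nearest edge of a region, and 9 members without a promoter window have none. Exons and introns were not separated. The overlap search was tested on simulated regions. No test between groups was possible with 1 library each. Values are given for every higher region, regions within 5 kb of a start, the region with the largest statistic of each member, and members with the most regions. Processing genes named are those with the largest statistics or only higher regions. Members, lists and rules were chosen with earlier results of these data known. Alternatives changed the flank, filters on regions, merging, weighting and the class limits. Tools were pandas 2.3.3 and numpy 2.4.6 on Python 3.11.15, with scipy 1.17.1 for intervals and matplotlib 3.10.9 for plots.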

Additional observations from a re-analysis of the deposited data

How the results depend on the processing

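Of 56 values recomputed under 9 other settings, 46 stayed within 1.5 times the count or inside the 95% interval of the value above, and 10 moved beyond it. None changed direction. The number of lower collagen regions was 54 with a difference of at least 0.5, 45 with at least 10 cytosines and 48 with only statistics above the median, since fewer regions are kept. Under the same 3 settings the share lower was 93.1%, 93.8% and 94.1%, beside 79.7%, 78.0% and 78.8% of all regions, and the basement-membrane share was 100% each time, over 10, 9 and 9 regions. The median difference was -0.577 when only differences of at least 0.5 were kept. The fibrillar and other shares moved in no setting, but most settings keep many of the same regions and the intervals are wide. Taking type IV alone as basement membrane could not change the fibrillar share. Merging could not change which members had a region. With 10 kb on each side the basement-membrane share was 69.2% (18 of 26), inside its interval but below the 77.7% of all listed regions. With the gene span only, 31 members had a region. No paired analysis was possible because each group has 1 library. Read depth was not given, so the precision of single levels is unknown.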
